A study of Homo sapiens with 40 samples.

Results

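The 10 genes described here, VIM, CDH2, ZEB1, ZEB2, SNAI2, TWIST1, FN1, TP63, SPARC and COL1A1, mark mesenchymal or basal cells and were chosen by name, as genes expected to be silent in a luminal epithelial line. They are 10 of the 60279 genes listed for each cell. T47D is a human luminal breast cancer cell line, here 1 culture at passage 10 from which cells positive for EpCAM and CD49f were sorted. The study compared full-length RNA sequencing protocols on these cells, and the counts came from 13 cells for G&T (mRNA captured on oligo-dT beads before amplification), 13 for Takara (the SMART-seq HT kit) and 14 for NEB (the NEBNext Single Cell/Low Input kit), with no treatment named in the labels. SMART-Seq3 cells were not analysed here. After removal of 2 G&T, 2 Takara and 3 NEB cells that failed the study's quality thresholds, 33 cells remained, 11 per protocol. Per the study's methods, NEB cells had more PCR cycles than G&T and Takara cells and a different library preparation kit. Each protocol was 1 plate and 1 run, which means that effects of protocol and run cannot be told apart. The cells are not replicates of a protocol, and no test was made between protocols.

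Mesenchymal genes are switched on in epithelial cells during epithelial to mesenchymal transition, when transcription factors of the ZEB, SNAI and TWIST families bind E-box motifs and repress the E-cadherin gene CDH1. Cells then gain N-cadherin, the intermediate filament vimentin and matrix proteins such as fibronectin, while keratins decline. TP63 encodes p63, a transcription factor of basal epithelial cells that luminal cells of the breast normally lack. T47D cells keep E-cadherin and luminal keratins and are commonly used as an epithelial reference.

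The kept cells held 672328 to 1192383 reads on genes and ERCC spike-ins with G&T (median 818577), 827663 to 1297218 with Takara (median 1074823) and 720899 to 1021613 with NEB (median 811658). Levels are given in CPM, counts per 1000000 reads on genes. A gene with no read in a cell was given a limit of 3 reads, which was 2.57 to 4.56 CPM in a G&T cell, 2.33 to 3.67 CPM in a Takara cell and 3.11 to 4.80 CPM in a NEB cell. Pooled over the 11 cells of a protocol, the limit was 0.316 CPM with G&T, 0.256 CPM with Takara and 0.376 CPM with NEB, and over all 33 cells it was 0.103 CPM. The same rule allows a share of up to 27.3% of cells with a read where 0 of 11 had one, and up to 9.09% where 0 of 33 did. It limits cells with a read and not cells that express the gene, since an expressing cell can give no read. In NEB, EPCAM had no read in cell B1 although cells were sorted for its product. Reads carried no molecular identifiers, so these limits and all intervals cover counting error only. The median number of genes detected per cell was 11253 with G&T, 10983 with Takara and 5161 with NEB.

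Upstream sequence is shown for FN1, which had reads in most cells, and for VIM, which had them in a minority. The 250 bases before the start were taken from RefSeq on GRCh38.p14, where 7 of the 10 genes have an entry (not SNAI2, TWIST1 and COL1A1). Capitals mark each match on either strand to TATAA (TATA box), GGGCGG (GC box) or TGACGTCA (the cAMP response element), and neighbouring GC boxes can overlap. The FN1 window lies at chr2:215436069-215436318 on the minus strand and that of VIM at chr10:17227991-17228240 on the plus strand.
FN1: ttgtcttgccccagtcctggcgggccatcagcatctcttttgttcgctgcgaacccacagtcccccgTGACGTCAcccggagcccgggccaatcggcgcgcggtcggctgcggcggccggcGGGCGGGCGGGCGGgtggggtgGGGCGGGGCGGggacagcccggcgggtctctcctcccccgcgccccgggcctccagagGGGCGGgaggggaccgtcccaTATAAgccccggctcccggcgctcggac
VIM: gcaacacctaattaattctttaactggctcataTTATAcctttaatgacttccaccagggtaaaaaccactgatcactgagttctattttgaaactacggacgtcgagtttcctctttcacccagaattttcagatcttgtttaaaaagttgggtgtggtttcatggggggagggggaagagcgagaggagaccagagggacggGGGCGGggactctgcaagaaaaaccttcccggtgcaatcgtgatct
The FN1 window was 76.4% GC with 32 CG pairs, more than 90.5% of the 34796 promoters in the table, and held 6 GC boxes, 1 TATAA and 1 TGACGTCA. VIM's window was 46.0% GC with 8 CG pairs, more than 43.8% of promoters, and held 1 TATAA and 1 GC box. Among all promoters the median was 11 CG pairs, and 42.6% held GGGCGG, 19.0% TATAA and 1.64% TGACGTCA. These matches describe letters only.

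Of the 10 genes, 6 had a read in at least 1 kept G&T cell, 5 in Takara and 3 in NEB. For comparison, 71.7% of the 19550 listed protein-coding genes did so with G&T, 65.3% with Takara and 49.5% with NEB, and 37.2%, 29.9% and 20.7% of all listed genes. VIM, FN1 and COL1A1 had reads in all 3 protocols, as 48.1% of protein-coding genes did. ZEB1, SNAI2 and TWIST1 had no read in any of the 33 cells, which was the case for 24.5% of protein-coding genes. Few or no reads were thus counted for 7 members, and VIM was read in 9 of 33 cells. FN1 and COL1A1, also expected to be silent, were read in 24 and 30 of the 33 cells. A read alone does not show expression by that cell, since removed NEB cell F1, with 99.7% ERCC reads, held 21 COL1A1 reads. The source of the reads was not tested. Of the 110 pairs of a cell and a gene in each protocol, 27 (24.5%) had a read with G&T, 26 (23.6%) with Takara and 17 (15.5%) with NEB, against 48.9%, 49.8% and 23.9% of such pairs over protein-coding genes. FN1 and COL1A1 together held 91.5% of the reads on the 10 genes with G&T, 94.0% with Takara and 63.5% with NEB. Of the 33 cells, 1 (NEB) had no read on any of the 10 genes, 8 had reads on 1 gene, 12 on 2, 10 on 3 and 2 on 4. A read in at least 6 of 11 cells was found for 2 members with G&T (background 49.1%), 2 with Takara (50.6%) and 1 with NEB (21.7%), where the background is protein-coding genes (17.4%, 18.0% and 7.54% of all listed genes). Pooled levels reached 1 CPM for the same 3 genes, VIM, FN1 and COL1A1, in each protocol, against 58.9%, 56.3% and 45.0% of protein-coding genes. At 10 CPM, FN1 and COL1A1 passed in G&T and Takara (background 41.2% and 39.5%), and VIM passed with them in NEB (31.8%).

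**Figure D1:**
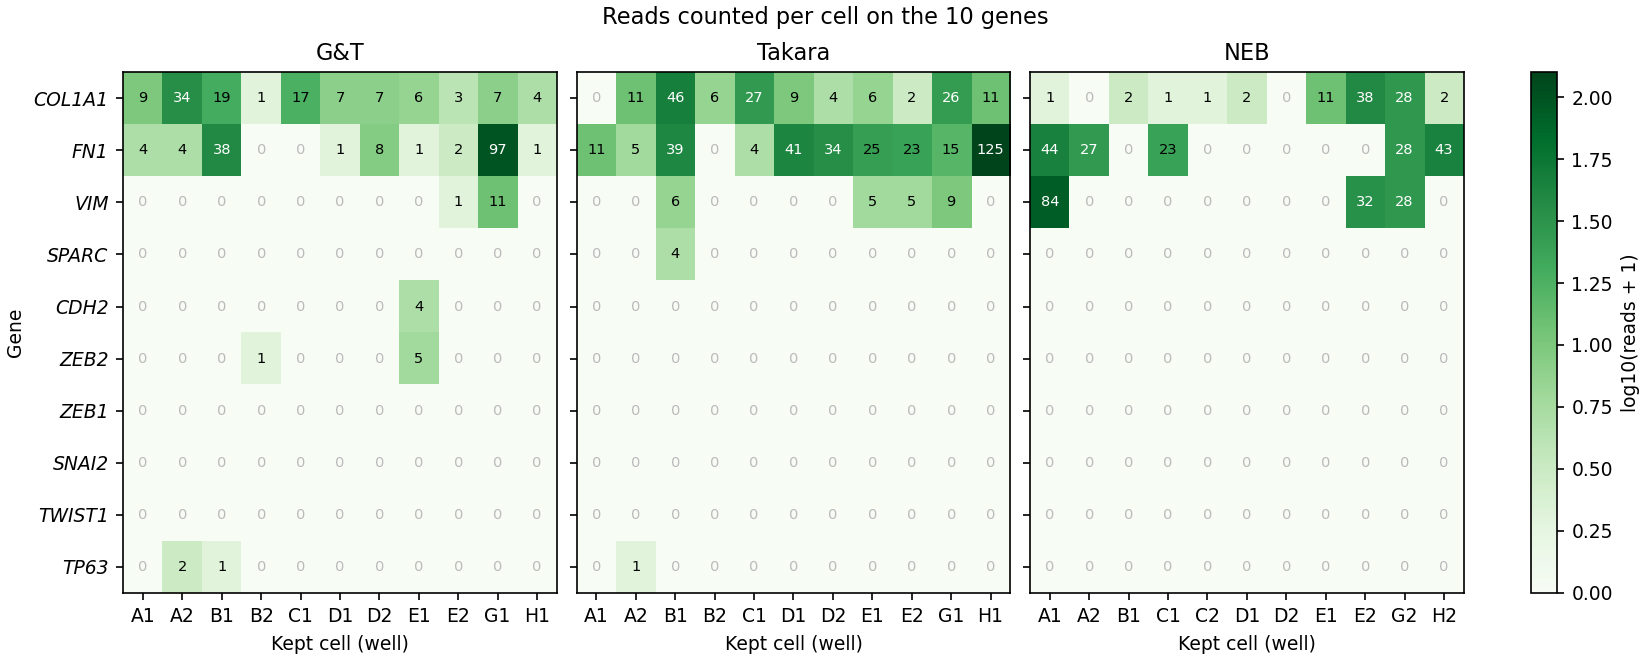
Reads counted on each of the 10 genes (rows) in each kept cell (columns, by well), with 1 panel per protocol and colour on a log10(reads + 1) scale. COL1A1 and FN1 filled most cells of G&T and Takara, VIM appeared in 2, 4 and 3 cells, and ZEB1, SNAI2 and TWIST1 stood at 0 throughout.

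Of the 4 transcription factors of the transition, 3 had no read in any cell. ZEB1 (chromosome 10, 31318495 to 31529814, plus strand), a repressor of CDH1, had 0 reads in 33 cells, as did TWIST1 (chromosome 7, 19020991 to 19117636, minus strand), a basic helix-loop-helix factor, and SNAI2, which encodes Slug. None of these genes had a read in the 7 removed cells either, and over the 33 cells each is limited to 0.103 CPM of counted reads. ZEB2 (chromosome 2, 144364364 to 144521057, minus strand), a close relative of ZEB1, had 5 reads in G&T cell E1 and 1 read in G&T cell B2, and none in the other 31 cells. Its pooled G&T level was 0.632 CPM (95% Poisson interval 0.232 to 1.37) and fell to 0.114 CPM without cell E1. XBP1, a transcription factor commonly active in luminal breast cells that shares no exon with another gene, was likewise listed at 0 in all 33 cells, and the reason was not tested. If a gene can be listed at 0 through the counting or annotation, the limits for ZEB1, SNAI2 and TWIST1 would not hold, and a 0 here says only that no read was counted. In GENCODE release 44, the share of exon bases that lie in exons of another gene was 4.58% for ZEB1, 4.97% for ZEB2, 7.06% for TWIST1, all of it on the opposite strand, and 0% for SNAI2. Whether the counting used strand is not given in the sources used here. Without strand, reads on such bases count as ambiguous.

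N-cadherin was close to the same limit. CDH2 (chromosome 18, 27932879 to 28177946, minus strand), which encodes it, had 4 reads in G&T cell E1 and none in the other 32 cells. Pooled over G&T this was 0.421 CPM (0.115 to 1.08). The cell with the CDH2 reads was also the one with 5 ZEB2 reads. Its counterpart CDH1, E-cadherin, had reads in 33 of 33 cells, at 36.6 CPM per kb of exons with G&T, 28.9 with Takara and 79.1 with NEB. Per kb, CDH1 stood 746-fold above CDH2 with G&T (95% interval 291 to 2739, on 4 CDH2 reads), at least 969-fold above it with Takara and at least 1805-fold above it with NEB, where CDH2 was set to the limit of 3 reads.

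Vimentin was read in few cells, and at a higher pooled level in NEB. VIM (chromosome 10, 17228241 to 17237593, plus strand) had 1 read in G&T cell E2 and 11 in G1. In Takara it had 6 reads in cell B1, 5 in E1, 5 in E2 and 9 in G1. In NEB the reads numbered 84 in cell A1, 32 in E2 and 28 in G2. The other 24 cells had none, and the median was 0 in each protocol. The share of cells with a read was 18.2% with G&T (exact binomial interval 2.28% to 51.8%), 36.4% with Takara (10.9% to 69.2%) and 27.3% with NEB (6.02% to 61.0%), and these intervals overlapped. Each positive NEB cell held 28 or more reads, above the 11 or fewer of the positive G&T and Takara cells. Pooled levels were 1.26 CPM with G&T (95% Poisson interval 0.653 to 2.21), 2.13 CPM with Takara (1.38 to 3.15) and 18.1 CPM with NEB (15.2 to 21.3). The mean per cell was 1.36 ± 4.19 CPM (SD, n = 11 cells) with G&T, 2.11 ± 2.99 with Takara and 19.4 ± 39.4 with NEB, and the ranges overlapped at 0. Cell G1 held 91.7% of the G&T reads, and cell A1 58.3% of the NEB reads. Leaving out the cell with the most reads gave 0.115 CPM with G&T, 1.53 CPM with Takara and 8.21 CPM with NEB. Of VIM's exon bases, 24.6% are shared with the antisense genes VIM-AS1 and ENSG00000234961, the largest share among the 10 genes. Ambiguous reads, which overlap more than 1 gene, made up 7.04% to 10.5% of a cell's reads with G&T, 10.0% to 11.2% with Takara and 5.41% to 6.06% with NEB, the lowest range in the protocol with the highest VIM level. Their part in the VIM difference was not tested.

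Fibronectin and collagen I had reads in most G&T and Takara cells, and collagen I also in most NEB cells. FN1 (chromosome 2, 215360440 to 215436073, minus strand) encodes fibronectin, a matrix glycoprotein, and had reads in 9 of 11 G&T cells, 10 of 11 Takara cells and 5 of 11 NEB cells. G&T cells had 0 to 97 reads (median 2), Takara cells 0 to 125 (median 23) and NEB cells 0 to 44 (median 0). NEB cells fell into 6 without a read and 5 with 23 to 44 reads, whereas 4 of the 9 positive G&T cells had only 1 or 2. Pooled levels were 16.4 CPM with G&T (13.9 to 19.2), 27.5 CPM with Takara (24.6 to 30.7) and 20.7 CPM with NEB (17.7 to 24.1). Means per cell were, in the same order, 16.7 ± 36.9 CPM (SD, n = 11 cells), 27.2 ± 28.6 and 21.9 ± 26.8, and the ranges overlapped. Cell G1 held 62.2% of the G&T reads on FN1, and without it the pooled level was 6.77 CPM. The same was 18.8 CPM in Takara without cell H1, which held 38.8%, and 16.6 CPM in NEB without cell A1. With all 13 deposited G&T cells the level was 20.5 CPM. FN1 shares no exon bases with another gene.

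COL1A1 (chromosome 17, 50184101 to 50201632, minus strand) encodes the alpha 1 chain of type I collagen, the main fibrillar collagen of connective tissue, and was the member read in the most cells. It had 1 to 34 reads in the 11 G&T cells with a median of 7, and 0 to 46 in Takara with a median of 9 and 1 cell at 0. In NEB it had 0 to 38 reads with a median of 2 and 2 cells at 0. The 114 G&T reads gave a pooled level with a 95% Poisson interval of 9.90 to 14.4 CPM, while Takara gave 12.6 CPM (10.7 to 14.8) and NEB 10.8 CPM (8.63 to 13.3). Across G&T, Takara and NEB cells the means were 12.2 ± 12.1 CPM (SD, n = 11 cells), 12.2 ± 13.5 and 11.1 ± 18.5. In NEB, cells E2 and G2 held 76.7% of the reads, while 6 of the 9 positive cells had 1 or 2 reads. Without the cell with the most reads the levels were 9.16, 9.49 and 6.65 CPM, and with all 13 deposited cells the G&T level was 15.6 CPM. FN1 and COL1A1 were read together in 9 G&T, 9 Takara and 4 NEB cells. Each of the 9 cells with VIM reads also had COL1A1 reads, and 8 of them had FN1 reads. Among all 33 cells, 30 had COL1A1 reads and 24 had FN1 reads, so much overlap is found for any cells. SPARC (chromosome 5, 151661096 to 151686975, minus strand), a secreted glycoprotein that binds collagen, had 4 reads in Takara cell B1 and none in the other 32 cells. Its pooled Takara level was 0.341 CPM (0.0930 to 0.874).

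**Figure D2:**
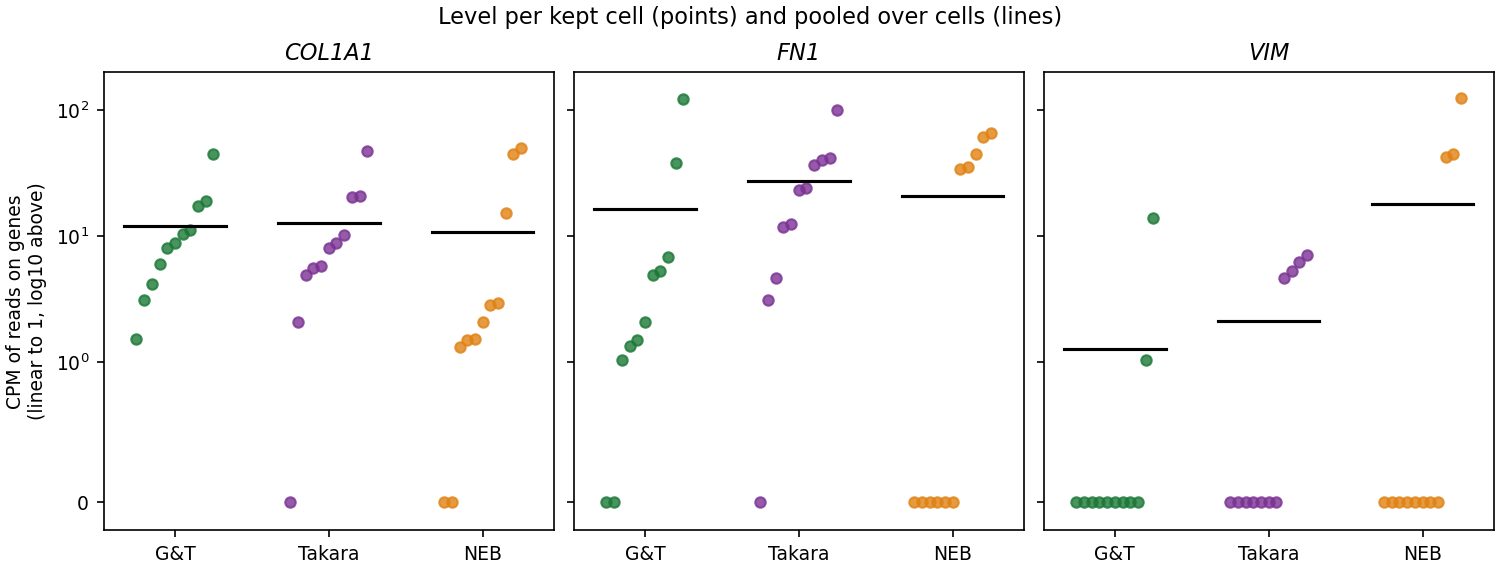
CPM of COL1A1, FN1 and VIM in each kept cell (points, sorted within a protocol) with the pooled level as a black line, on an axis that is linear up to 1 CPM and log10 above. COL1A1 was spread widely around like pooled levels (12.6 CPM in Takara and 10.8 CPM in NEB), 6 NEB cells had no FN1 read, and the 3 NEB cells with VIM reads stood above all other cells.

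TP63 was at the limit of detection. The gene (chromosome 3, 189631389 to 189897276, plus strand) had 2 reads in G&T cell A2, 1 read in G&T cell B1 and 1 read in Takara cell A2. The pooled levels were 0.316 CPM in G&T (0.0651 to 0.923) and 0.0853 CPM in Takara (0.00216 to 0.476), and no NEB cell had a read. CDH2, ZEB2, TP63 and SPARC together thus gave 13 reads in 4 G&T cells, 5 reads in 2 Takara cells and none in NEB. In those 4 G&T cells (A2, B1, B2 and E1), 14.9% to 19.2% of all reads fell outside annotated features. Of the other 7 G&T cells, 1 stood at 23.2% and the rest at 5.46% to 11.4%. Takara cell B1, with the SPARC reads, had 7.27% of its reads outside features, and Takara cell A2, with the TP63 read, had 1.46%. The other 9 Takara cells had 1.97% to 3.14%. In NEB, without any such read on these genes, the range was 9.39% to 17.6%. The part of reads from outside annotated features in these low counts was not tested.

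Per kb of exons, the members with reads could be set in order within a protocol. Those at 0 could not be placed, since in G&T their limits ran from 0.0365 CPM per kb (ZEB1) to 0.158 (TWIST1), across the levels of the rarely read members. The divisor was the union of all annotated exons of a gene, from 2.00 kb (TWIST1) to 26.2 kb (ZEB2). A transcript shorter than this union would give another level. The order and all ratios per kb thus also depend on the lengths used, which the intervals do not cover. In G&T the order was COL1A1 at 1.33 CPM per kb (1.10 to 1.60), FN1 at 0.954 (0.810 to 1.12), VIM at 0.244 (0.126 to 0.426), CDH2 at 0.0491 (0.0134 to 0.126), TP63 at 0.0422 and ZEB2 at 0.0242. Counting intervals of COL1A1 and FN1 overlapped, as did those of the last 3 genes. This order rests in part on cell G1, without which G&T levels were 0.0222 CPM per kb for VIM, below those of CDH2, TP63 and ZEB2, and 0.393 for FN1. In Takara FN1 stood at 1.60 CPM per kb (1.43 to 1.78), COL1A1 at 1.40 (1.19 to 1.65), VIM at 0.412 (0.267 to 0.609), SPARC at 0.0736 and TP63 at 0.0114, and the first pair and the last pair overlapped. In NEB VIM led at 3.49 CPM per kb (2.94 to 4.11), before FN1 at 1.20 (1.03 to 1.40) and COL1A1 at 1.20 (0.958 to 1.48). Without cell A1, which had the most VIM and FN1 reads, NEB levels were 1.59 CPM per kb for VIM and 0.962 for FN1. That cell held only 1 of the 86 NEB reads on COL1A1. The lead of VIM over COL1A1 in NEB thus also narrowed and rests largely on cell A1. The epithelial genes lay far above. KRT8, a luminal keratin, stood at 616 CPM per kb with G&T, 761 with Takara and 12.3 with NEB, its partner KRT18 at 311, 845 and 137, and EPCAM at 76.4, 206 and 76.1. KRT8 and KRT18 were read in 33 of 33 cells and EPCAM in 32. The ratio of KRT8 to VIM per kb was 2523 with G&T (1444 to 4884), 1845 with Takara (1250 to 2852) and 3.53 with NEB (2.95 to 4.26). KRT18 to VIM gave 1276, 2049 and 39.2. The G&T ratios rest on 12 VIM reads, 11 of them in cell G1. With that cell left out, an alternative added after seeing the data, KRT8 to VIM in G&T was 27850 on 1 VIM read (lower bound of the interval 4998) and KRT18 to VIM 14256 (2558). Without cell A1, the NEB ratios were 6.63 and 79.6. Both the lower KRT8 and the higher VIM level entered the NEB ratios. KRT8 shares 7.63% of its exon bases with KRT18, and KRT18 17.1% with KRT8, on opposite strands. Both keratins have many processed pseudogenes that can take or hide reads, so their levels are uncertain.

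**Figure D3:**
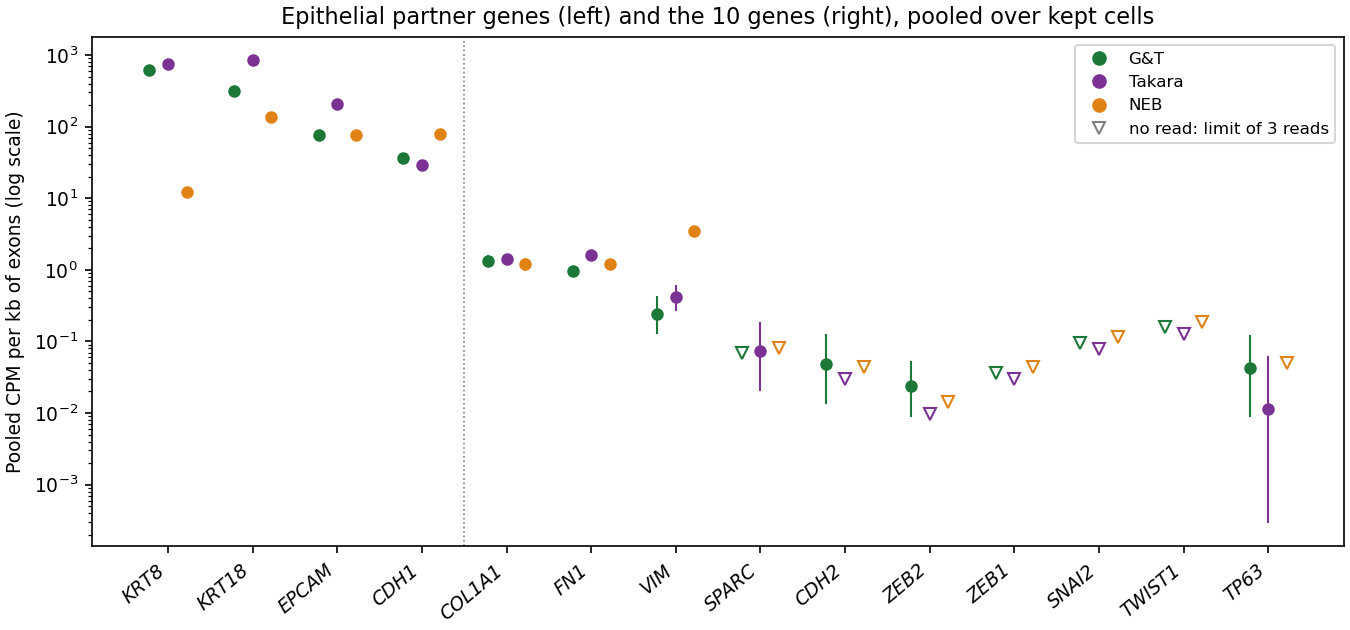
Pooled CPM per kb of exons (log scale) of 4 epithelial genes and of the 10 genes in each protocol, with 95% Poisson intervals as bars and open triangles for the limit of 3 reads where no read was found. VIM reached 3.49 CPM per kb in NEB against 0.244 for G&T and 0.412 for Takara, and KRT8 in NEB (12.3) lay below its levels in G&T (616) and Takara (761).

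Between protocols, few members were 2-fold apart in pooled CPM. Ratios were formed where at least 1 of the 2 protocols had more than 3 reads, and a side without reads was set to 3. VIM was higher in NEB, 14.3-fold above G&T (95% interval 7.94 to 28.3) and 8.46-fold above Takara (5.51 to 13.5). On the log2(CPM + 1) scale the difference of G&T to NEB was -3.07, and -3.05 without the top cell of each protocol. That of Takara to NEB was -2.60, and -1.86 without the top cells. VIM was the only member called in NEB's favour, 1 of 5 against G&T where 18.2% of all genes compared were higher in NEB, and 1 of 4 against Takara where 24.3% were. No member was called higher than NEB in G&T (background 45.4%) or in Takara (42.5%). For 3 members the limit fixed this outcome, since NEB had no read and was set to 3. Over that limit CDH2 came to 1.12-fold and ZEB2 to 1.68-fold in G&T, and SPARC to 0.907-fold in Takara. Their absence from the calls is therefore not a result about these genes. Between G&T and Takara, 1 of 6 members was higher in G&T (background 34.6%), which was ZEB2 at least 2.47-fold above the Takara limit, a call that rests on the 5 reads of cell E1. No member passed in Takara's favour (18.3%). SPARC in Takara and CDH2 in G&T, with 4 reads each against 0, could not reach 2-fold over the limit. FN1 was 1.67-fold higher in Takara than in G&T (1.38 to 2.04) and COL1A1 1.05-fold (0.819 to 1.36), a direction that turned with all deposited cells (log2 difference of G&T to Takara 0.28 in place of -0.07). Without the top cells FN1 passed 2-fold, with a log2 difference of -1.35 for G&T to Takara and -1.18 for G&T to NEB in place of -0.71 and -0.32. VIM likewise passed 2-fold between G&T and Takara, with -1.18 in place of -0.47, so that both genes were then higher in Takara. Every difference between means per cell was smaller than the larger SD over cells, at 0.00216 to 0.457 of it. For a gene read in few cells this measure is small whatever the fold. CDH2 and SPARC, each read in 1 cell, gave 0.302 in every comparison. It therefore says little about the size of the VIM difference.

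Other markers gave the setting of these values. Of 20 further mesenchymal genes, 11 had a read with G&T, 10 with Takara and 4 with NEB, and 8, 8 and 4 reached 1 CPM. Their leading genes were S100A4, a calcium-binding protein (50.6 CPM), CALD1, an actin-binding protein (20.8 CPM), and the hyaluronan receptor CD44 (13.5 CPM) in G&T. In Takara CD44 (31.3 CPM), ACTA2, smooth muscle actin (30.9 CPM), and the integrin ITGA5 (20.8 CPM) led, and in NEB CALD1 (57.1 CPM), the receptor kinase AXL (36.9 CPM) and S100A4 (10.2 CPM). The NEB levels came from few cells, with CALD1 read in 5 of 11, AXL in 5 and S100A4 in 4. S100A4 was read in 11 G&T and 11 Takara cells, CALD1 in 8 and 9, and AXL in only 2 and 4. The summed level of this mesenchymal list per cell ran from 36.5 to 232 CPM with G&T, 46.6 to 256 with Takara and 0 to 356 with NEB. Of 9 fibroblast genes, 5 had a read with G&T, 1 with Takara and 1 with NEB, with summed levels of 0 to 5.36, 0 to 1.03 and 0 to 20.6 CPM per cell. COL1A2, whose product pairs with that of COL1A1 in type I collagen, had 3 reads in 2 G&T cells and none in Takara or NEB. DCN, the proteoglycan decorin, had 6 reads in 2 G&T cells (0.632 CPM) and none in Takara or NEB. PDGFRB had 1 read in G&T and 1 in Takara, PDGFRA and FAP had 1 each in G&T only, and COL3A1 had 19 reads in 2 NEB cells (2.38 CPM) and none in the other protocols. LUM, POSTN and THY1 had no read in any protocol.

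Of 20 basal and myoepithelial genes, 13 had a read with G&T, 12 with Takara and 7 with NEB, and 7, 9 and 6 reached 1 CPM. The leading ones were ITGB4 (37.4 CPM), ITGA6 (34.9 CPM), the gene of the CD49f used in the sort, and the cadherin CDH3 (34.3 CPM) in G&T. ITGB4 (86.2 CPM), TRIM29 (83.0 CPM) and CDH3 (54.5 CPM) led in Takara, and ITGA6 (30.5 CPM), LAMA3 (88 reads in 1 cell) and CDH3 (6.15 CPM) in NEB. Among the 5 basal keratins of the list, KRT5 had 1 read, KRT14 2 and KRT6A 3 in G&T, and KRT17 had 19 reads in 2 Takara cells (1.62 CPM) and KRT6B 1 read in Takara. NEB had no read on any of them. Per cell the summed level of the list was 37.7 to 357 CPM with G&T, 124 to 398 with Takara and 0 to 222 with NEB. Endothelial genes had a read for 3 of 7 with G&T, 0 with Takara and 1 with NEB, led in G&T by VWF (1.68 CPM) and PECAM1 (1.26 CPM), and immune genes for 3, 2 and 1 of 9, with CD74 at 8.53 CPM in G&T and 7.17 CPM in Takara. CD68 of the immune list, at 0 in each protocol, shares 85.6% of its exon bases with other genes, 81.6% on the same strand. TAGLN of the mesenchymal list shares 47.8%, with 38.1% on the same strand. Reads on such bases can count as ambiguous, so the counts of these genes are uncertain. Of 14 luminal genes, 13 reached 1 CPM in each protocol, with summed levels of 2152 CPM or more in every kept cell. The part of other cell types in the FN1, COL1A1 and VIM reads was not tested.

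**Figure D4:**
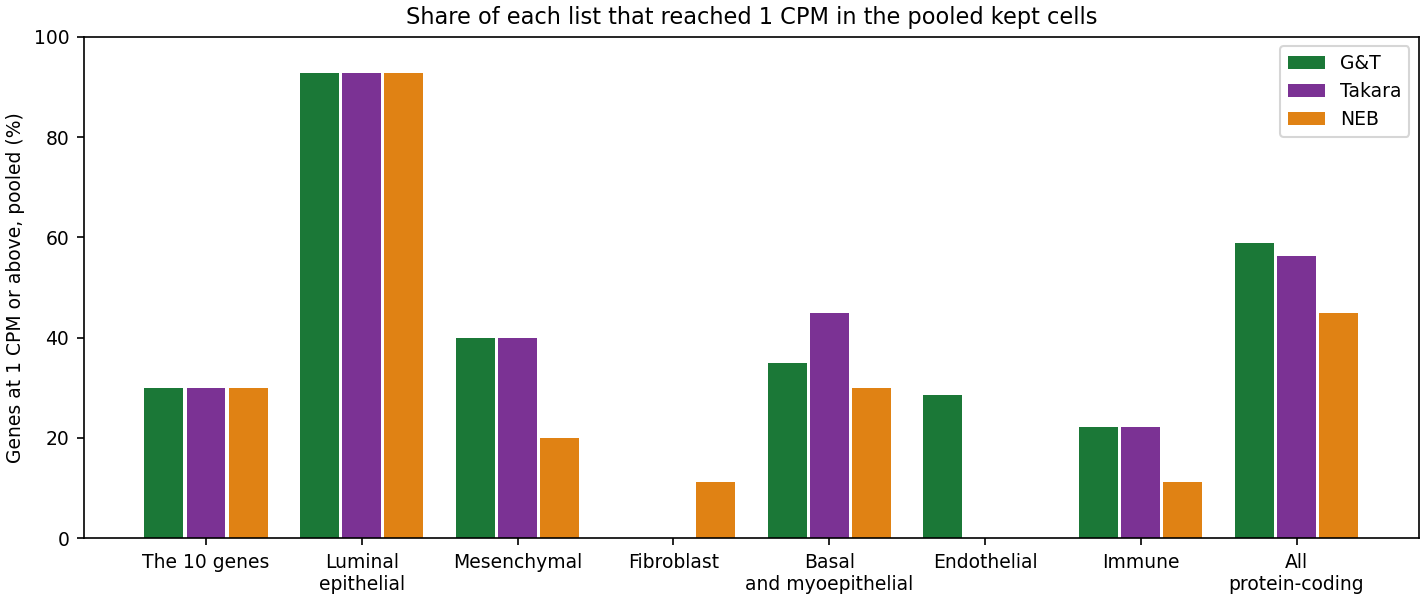
Share of the genes of each list, in percent, whose pooled level reached 1 CPM in G&T, Takara and NEB, for the 10 genes, 6 marker lists and all protein-coding genes. The 10 genes stood at 3 of 10 in each protocol, against 58.9%, 56.3% and 45.0% of protein-coding genes and 92.9% of the luminal list.

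Genes with a pattern over cells most like that of a member were sought for FN1 and COL1A1, which had reads in at least 6 of 11 cells of a protocol. For FN1, over 11 G&T and 11 Takara cells and 9769 genes, the highest mean Spearman rho of CPM was found for TFG (0.78), SEC24D (0.77) and WASL (0.72). For COL1A1, over 11 cells of each of the 3 protocols and 4421 genes, genes with a high mean rho were RAB5C (0.57) and FAM91A1 (0.54). The rho of RAB5C was 0.66 with G&T, 0.75 with Takara and 0.31 with NEB. The cells of a protocol share a plate and run, and these genes were picked from the highest of all compared. Between FN1 and COL1A1 the rho was 0.37 with G&T, -0.13 with Takara and -0.07 with NEB.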

How the data were processed

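Read counts per gene were deposited by the authors as 1 table per protocol, as raw counts without normalization. Per the submitters' processing notes and the study's methods, reads were trimmed with Trim Galore, aligned to GRCh38 with STAR and counted per gene by STAR. The annotation release and strand setting are not given in the sources used here. The tables list 60279 genes and 92 ERCC spike-ins, and also unassigned reads, which stayed out of library sizes. Cells were kept with 1000 or more genes, a library of 600000 or more, and no more than 30% mitochondrial and 25% ERCC reads.

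Pooled CPM is a gene's reads summed over kept cells per 1000000 reads on genes (9500268 with G&T, 11716685 with Takara and 7973692 with NEB), with exact Poisson intervals at 95%. Shares of cells have exact Clopper-Pearson intervals. The interval of a ratio is the exact binomial interval of the split of the reads. Differences were called at 2-fold, and log2 ratios used 1 CPM as pseudocount. Exon lengths (the union of a gene's exons), overlaps and coordinates came from GENCODE release 44, which may not be the authors' release. Promoters came from RefSeq.

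No test was made, since each protocol is 1 sample. The text names all 10 genes, CDH1, KRT8, KRT18 and EPCAM, the 3 genes with the highest pooled CPM of each marker list, and the 3 genes most like a member over cells, but 2 genes under this rule are not reported here. XBP1, LUM, POSTN, THY1, KRT5, KRT14, KRT17, KRT6A, KRT6B, CD68 and TAGLN were named after their values were seen. The 10 genes and the lists were chosen with earlier results of these data known. Alternatives covered detection at 5 reads or in 2 cells, all deposited cells, thinning, leaving out the top cell, means of cells, the ERCC denominator, TMM scaling, the pseudocount and the filter. Steps were tested on simulated data. Python 3.11.15, numpy 2.4.6, pandas 2.3.3, scipy 1.17.1, matplotlib 3.10.9, R 4.3.3 and edgeR 4.0.16 were used.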

Additional observations from a re-analysis of the deposited data

Results flagged for a closer look

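Cells removed by the quality thresholds also held reads on these genes, outside the comparisons above. G&T cell C2 had 34 COL1A1 reads, as many as the highest kept G&T cell. G&T cell F1 had 65 FN1 reads and 20 COL1A1 reads. NEB cell F2 had 15 VIM reads and 4 COL1A1 reads.

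NEB cell F1, where nearly all reads were ERCC spike-ins, had 21 COL1A1 reads of only 1421 reads on genes, or 1.48% (exact binomial interval 0.917% to 2.25%), against at most 0.00500% in a kept NEB cell. By reads, COL1A1 had rank 4 among the genes of that cell. The cell held 18.9% of all COL1A1 reads of the NEB run but 0.0158% of the run's reads on genes. Of the 9 genes with at least 10 reads there, FOCAD (3.72%) and APC (2.08%) also had a raised share of their reads in this cell, and the other 6 had at most 0.0325%. The source of these reads was not tested. FOCAD and APC were chosen after their values were seen.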

How the results depend on the processing

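Requiring 5 reads for detection left 13 cell and gene pairs in G&T (of 27) and 11 in NEB (of 17), and 3 members in Takara (of 5). Requiring reads in at least 2 cells also left 3 members in Takara. The other 10 alternatives for the count of members and 7 for the count of pairs stayed within 1.5 times. Among these, requiring 5 reads left 4 members in G&T (of 6), exactly at that bound, and 3 in NEB (of 3). The difference between protocols in members with a read thus rests largely on genes with few reads. Thinning all kept cells to the size of the smallest gave 5.99 members expected with G&T, 4.62 with Takara and 3 with NEB. Of the alternative values for pooled levels, 106 stayed within the counting interval and 14 did not, 12 of them on leaving out the top cell. The 106 include every alternative for a level of 0, which could not move. On leaving out the top cell 18 levels stayed, all at 0 except VIM in Takara and TP63 in G&T. This step takes away the most reads by design, and it gives 0 for a gene read in 1 cell. The moves of CDH2 in G&T and of SPARC and TP63 in Takara were therefore fixed in advance. The other moves differed in size. In G&T, VIM fell from 1.26 to 0.115 CPM and FN1 from 16.4 to 6.77 CPM. Smaller falls were those of FN1 in NEB, from 20.7 to 16.6 CPM, and of COL1A1 in Takara, from 12.6 to 9.49 CPM. The sign of FN1 between G&T and NEB turned, from a log2 difference of -0.32 to 0.15, with all deposited cells, and that of COL1A1 between G&T and Takara from -0.07 to 0.28. Without a filter on low counts, 5406 genes were higher in Takara than in G&T in place of 3416, 5625 higher in NEB than in G&T in place of 3284, and 6036 higher in NEB than in Takara in place of 3802. No paired analysis was possible because the labels give wells, which do not pair cells across protocols, and no result comes from a test. With 11 cells from 1 run per protocol, genes expressed in few cells or captured poorly can be missed in all of them.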
